A study of Mus musculus with 53 samples.

Results

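Genes of the unfolded protein response and of the integrated stress response were followed through 4 brain regions of mice that model spinocerebellar ataxia type 3 (SCA3). The set was a list of 10 gene symbols, namely Eif2ak3, Ern1, Xbp1, Atf4, Atf5, Ddit3, Trib3, Asns, Herpud1 and Sesn2, and 9 of them were among the 12372 genes of the count table. Trib3 was not analysed here. Each member present had between 292 and 11385 counts in every library.

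RNA sequencing had been performed on brainstem, cerebellum, cortex and striatum of male MJD84.2 and wild-type mice aged 74 to 77 weeks, both on a C57BL/6 background. MJD84.2 mice are hemizygous for a transgene of the whole human ATXN3 locus whose CAG repeat is expanded, and they also keep the mouse Atxn3 gene that the wild-type controls carry. There were 53 libraries from 14 mice, with 8 wild-type and 6 SCA3 libraries in brainstem, 7 and 6 in cerebellum, 7 and 6 in cortex, and 8 and 5 in striatum. Each library held 31.7 to 76.7 M counts (M for mega) with a median of 57.7 M, and levels are given as CPM, that is counts scaled to a common library total, here adjusted by TMM (trimmed mean of M values). The samples were pieces of bulk tissue, in which fewer cells of a type and less RNA per cell cannot be told apart, and the human transgene was not measured here, so that genotype rests on the labels. Summed cerebellar markers (3 of 6 in the table) reached 1760 to 2810 CPM in cerebellum and at most 369 CPM elsewhere. Striatal markers (6 of 8) reached 1050 to 5010 CPM in striatum and at most 213 CPM in brainstem or cerebellum, but in cortex they ran from 282 to 2120 CPM, so cortical and striatal libraries overlapped. Cortical markers (3 of 6) reached 400 to 2010 CPM in cortex, 309 to 547 CPM in cerebellum and 6.6 to 720 CPM in striatum. Markers of brainstem were not analysed here.

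Cells answer misfolded protein in the endoplasmic reticulum (ER) through 3 sensors, of which PERK (Eif2ak3) and IRE1 (Ern1) are among the genes described here and ATF6 is the other. PERK is also a kinase of translation factor eIF2, and the kinases GCN2, PKR and HRI act on the same factor in response to amino acid lack, double-stranded RNA and haem lack, which is why this arm is called the integrated stress response. When eIF2 is phosphorylated, most translation slows while the transcription factor ATF4 is made, and ATF4 turns on genes of amino acid uptake and synthesis and of tRNA charging. IRE1 splices the Xbp1 mRNA, and the resulting factor turns on chaperones and the machinery that removes misfolded proteins from the ER. Polyglutamine diseases such as SCA3 are disorders of misfolded protein, and ataxin-3 itself is a deubiquitinase that takes part in ER-associated degradation. Much of this response is translational or depends on splicing, and counts per gene show the mRNA level only.

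The factors act on short DNA elements, and promoters were searched for them on both strands, from 250 bases before to 50 bases after the start of each gene in RefSeq on GRCm38.p6. The ATF4 element was searched as TGATGNAAN, and 3.95% of all 32851 promoters of this length in the table hold it. The element of the XBP1 and ATF6 branch was searched as TGACGTGG, held by 0.676% of promoters. The ER stress element was searched as CCAAT and CCACG with 9 bases between them, held by 0.119%, and the ER stress element II as ATTGG and CCACG with 1 base between them, held by 0.0365%. All 10 listed genes had a promoter in the table. Asns, Herpud1 and Trib3 held an ATF4 element, and Herpud1 also held the ER stress element II. The other 7, Sesn2 and Atf4 among them, held none of the 4 in this window. The windows that follow are given because they carry the elements through which 2 of the genes measured here can be read as targets, with the matched letters in capitals, 5′ to 3′ on the strand of the gene. The Asns window is chr6:7693204-7693252 on the minus strand, and the Herpud1 sequence is the whole of the 250 bases before the start, chr8:94386179-94386428 on the plus strand, in which the ATF4 element comes first and lies on the opposite strand and the ER stress element II comes second.
Asns: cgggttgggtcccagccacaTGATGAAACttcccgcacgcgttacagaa
Herpud1: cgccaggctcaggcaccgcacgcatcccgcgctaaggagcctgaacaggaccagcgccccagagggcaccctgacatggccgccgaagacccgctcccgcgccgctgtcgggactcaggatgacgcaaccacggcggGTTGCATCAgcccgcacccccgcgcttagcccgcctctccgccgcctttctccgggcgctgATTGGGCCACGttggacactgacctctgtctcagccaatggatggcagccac

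Sesn2 and Atf4 are the members called between genotypes, in striatum alone and in 8 of 14 other settings each, and the 250 bases before their starts are shown for that reason. Sesn2 is chr4:132510457-132510706 on the minus strand and Atf4 is chr15:80254934-80255183 on the plus strand. No letters are in capitals, because none of the searched elements was found there. Absence of these letters from the window says nothing of elements elsewhere in the gene.
Sesn2: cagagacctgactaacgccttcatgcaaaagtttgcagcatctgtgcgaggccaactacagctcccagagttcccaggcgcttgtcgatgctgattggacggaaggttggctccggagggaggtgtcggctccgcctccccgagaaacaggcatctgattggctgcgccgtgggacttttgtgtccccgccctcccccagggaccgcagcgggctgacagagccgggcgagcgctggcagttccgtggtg
Atf4: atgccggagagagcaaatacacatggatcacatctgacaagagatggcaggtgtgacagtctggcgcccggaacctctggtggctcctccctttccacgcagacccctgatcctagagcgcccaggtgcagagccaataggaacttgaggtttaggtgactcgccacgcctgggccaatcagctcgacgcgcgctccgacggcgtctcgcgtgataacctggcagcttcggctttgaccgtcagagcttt

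The first question was where these genes are expressed in the healthy brain. To compare genes with one another, levels were divided by exonic length (CPM per kilobase, GENCODE gene models), and wild-type means are given. Atf4 was the highest member in each region, from 54.7 ± 8.06 (SD, n = 8) CPM per kilobase in striatum to 84.4 ± 7.27 (n = 7) in cerebellum. Asns, which makes asparagine, came second with 39.5 to 47.6, and Herpud1, Xbp1 and Ddit3 lay between 25.9 and 38.7. The sensors were far lower: Eif2ak3 lay between 7.6 and 11.7 and Ern1 between 1.37 and 1.8. Atf5, an ATF4-related factor, lay between 7.41 and 10.1, and Sesn2, a stress-induced regulator of mTORC1, between 2.52 and 4.72. The order of the members by mean was therefore led by the downstream factor ATF4, with the ER sensor Ern1 last in each region.

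**Figure D1:**
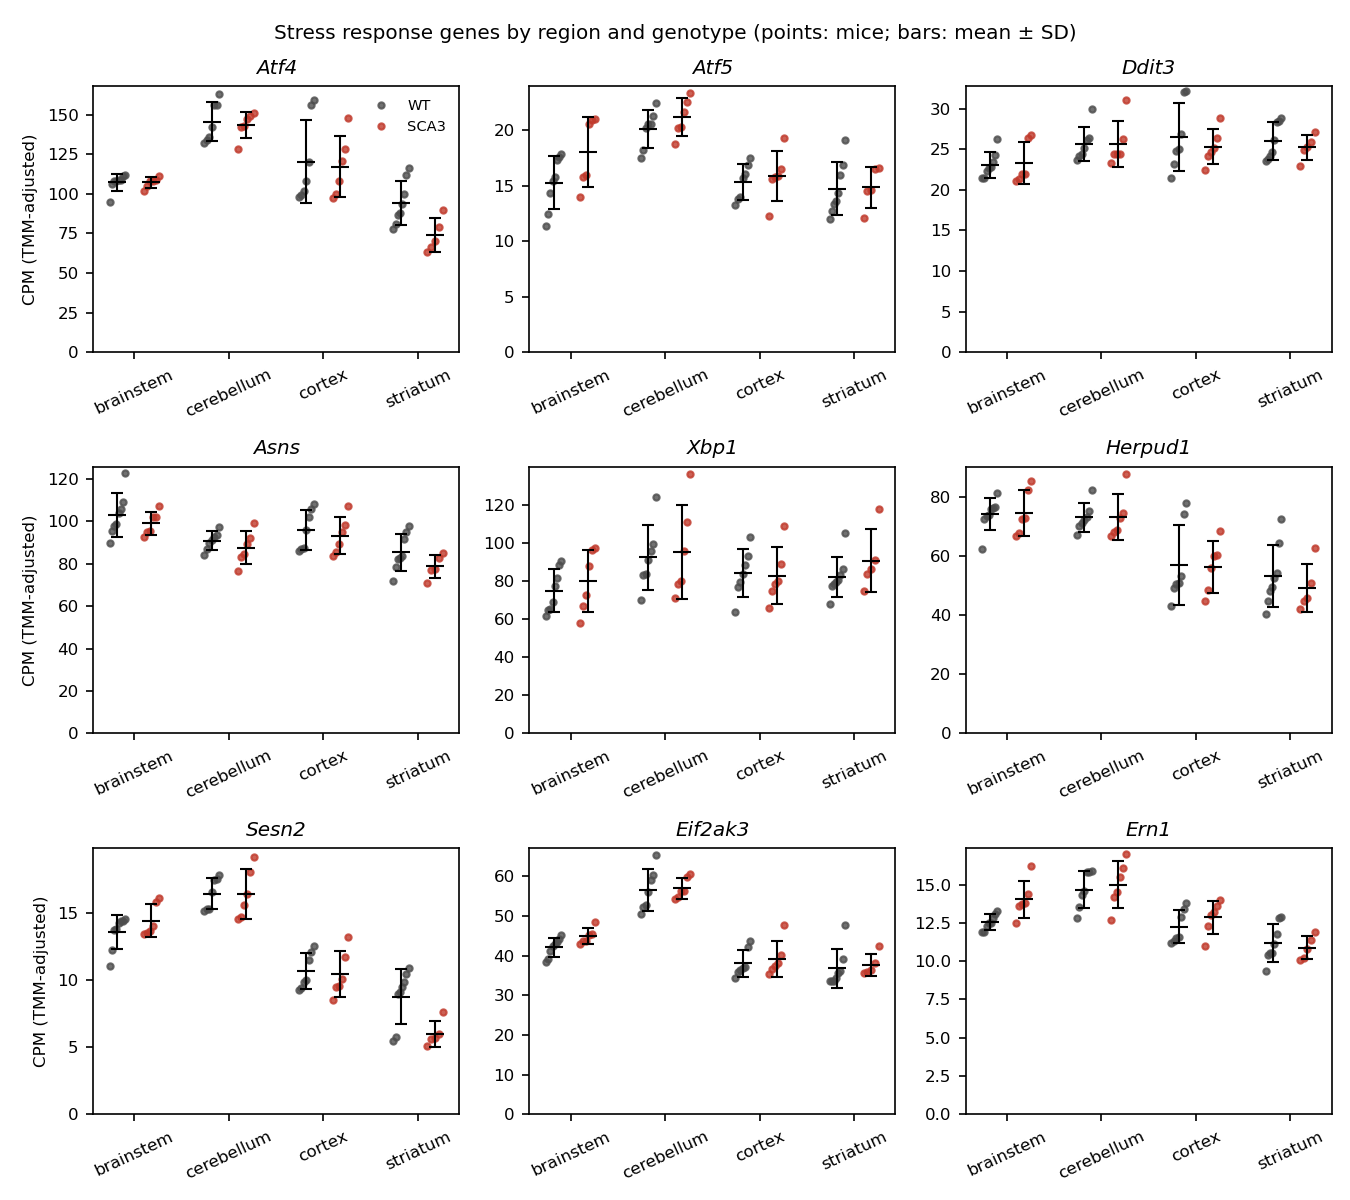
Level in CPM (vertical axes, from 0) of the 9 genes in each library of 4 regions (horizontal axes), wild-type in grey and SCA3 in red, with group means and SD as bars. Sesn2 and Atf4 in striatum are lower in SCA3 by the test, and wild-type libraries overlap SCA3 libraries in each panel.

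Between regions, wild-type levels were compared in 6 pairs by a likelihood ratio test in edgeR, and a gene was called where its FDR (false discovery rate after Benjamini-Hochberg adjustment over all 12372 genes) was below 0.05. In brainstem against cerebellum 7 of 9 members were called, where 72.6% of all genes were. The counts were 3 of 9 in brainstem against cortex (background 65.4%), 6 of 9 in brainstem against striatum (64.2%), 6 of 9 in cerebellum against cortex (69.7%), 6 of 9 in cerebellum against striatum (69.5%) and 3 of 9 in cortex against striatum (34.4%). These shares are near or below the background, so the members were not unusual in varying between regions.

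The ER sensors were both highest in cerebellum. In wild-type cerebellum Eif2ak3 ranged from 50.5 over a median of 56 to 65.5 CPM, and the highest value in brainstem, cortex or striatum was 47.8 CPM. Eif2ak3 was higher in cerebellum than in brainstem by 0.43 on the log2 scale (SE 0.07, FDR 9e-10), while brainstem and cortex, and cortex and striatum, did not differ past the threshold (FDR 0.051 and 0.59). Ern1 had means of 14.7 ± 1.2 CPM in cerebellum (SD, n = 7), 12.5 ± 0.513 in brainstem (n = 8), 12.2 ± 1.09 in cortex (n = 7) and 11.2 ± 1.25 in striatum (n = 8), and cerebellum was higher than each other region (FDR 1.9e-07 to 0.003). Brainstem and cortex (FDR 0.69) and cortex and striatum (FDR 0.16) did not pass for Ern1. Its substrate Xbp1 had a wide spread between mice, with means from 74.9 ± 11.3 CPM in brainstem to 92.4 ± 16.8 CPM in cerebellum. For Xbp1 this was the pair of regions that passed the test (0.3 lower in brainstem by log2, SE 0.13, FDR 0.028), and its call was lost without mouse 7267058, 9082857, 9083371 or 9083372 (FDR 0.051 to 0.076) and with RIN as a covariate (FDR 0.092).

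Atf4 was highest in cerebellum, at 132, 142 and 163 CPM (lowest, median, highest of 7), and lowest in striatum, at 78, 90.5 and 116 CPM (of 8), with no overlap. The log2 difference was 0.63 (SE 0.09, FDR 1.3e-10). Cortex (mean 120 ± 26.3 CPM) and brainstem (107 ± 5.28 CPM) lay between and did not differ from each other past the threshold (FDR 0.12), nor did brainstem from striatum (FDR 0.062). Atf5 was likewise higher in cerebellum (20.1 ± 1.71 CPM) than in the other regions (14.8 to 15.3 CPM, FDR 3.7e-05 to 0.00055), which did not differ among themselves (FDR 0.67 to 0.97). Ddit3, which encodes the death-promoting factor CHOP, was nearly flat, with means of 23.1 CPM in brainstem and 25.7 to 26.5 CPM elsewhere. For Ddit3 brainstem was lower than cortex (FDR 0.014) and striatum (FDR 0.033), and no other pair passed. The Ddit3 call against cortex was lost without mouse 9083373 (FDR 0.098) and that against striatum without 7267059, 9083371 or 9083375 (FDR 0.062 to 0.096).

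The targets did not share 1 regional order. Asns was highest in brainstem (103 ± 10.1 CPM) and lowest in striatum (85.4 ± 8.79 CPM), a log2 difference of 0.27 (SE 0.06, FDR 9.3e-05), but neighbours in the order brainstem, cortex, cerebellum and striatum did not differ past the threshold (FDR 0.18, 0.3 and 0.23). Herpud1, a membrane protein of ER-associated degradation, formed 2 levels: brainstem (74.2 ± 5.42 CPM) and cerebellum (73.2 ± 4.89 CPM) did not differ past the threshold (FDR 0.88), nor did cortex (57.2 ± 13.5 CPM) and striatum (53.4 ± 10.5 CPM, FDR 0.5), and all 4 comparisons across passed (FDR 2e-05 to 0.0027). Sesn2 was the member with a call in all 6 pairs of regions. Its wild-type CPM fell in the order cerebellum (15.1 to 17.8, median 16.5), brainstem (11 to 14.5, median 14), cortex (9.24 to 12.5, median 10) and striatum (5.48 to 10.9, median 9.3), and cerebellum was higher than striatum by 0.91 on the log2 scale (SE 0.11, FDR 1.1e-15). The step from cortex to striatum was 0.29 (SE 0.11, FDR 0.031), and its call was lost when any 1 of 4 wild-type mice (7267058, 9082857, 9083371 or 9083373) was left out. The call of Sesn2 between brainstem and cerebellum (FDR 0.018) was lost without mouse 7267059 (FDR 0.068) or 9083375 (FDR 0.07) and with a RIN of at least 7 (FDR 0.05).

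Among the other regional calls, that of Atf4 between cerebellum and cortex was lost without mouse 9083371 (FDR 0.059). For Asns between cortex and striatum, the call was kept in 9 of 14 fits that left out single mice. The fits that lost the Asns call included those without 9082853, 9082857, 9083371 or 9083373 (FDR 0.051 to 0.17). The call of Ern1 between brainstem and striatum was lost without 7267055, 7267058, 9082857, 9083371 or 9083372 (FDR 0.065 to 0.11) and with a RIN of at least 7 (FDR 0.13).

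The wild-type striatal group includes 4 libraries high in markers of the thalamus, described with the genotype comparison, and its levels depend on them. Without these libraries, an analysis chosen after seeing the data, Atf4 was higher in brainstem than in striatum by 0.36 on the log2 scale (FDR 0.0015) in place of 0.19, and Sesn2 higher in cortex than in striatum by 0.52 (FDR 5e-04) in place of 0.29. Asns then passed between cerebellum and striatum (0.2, FDR 0.019), and Ern1 no longer passed between brainstem and striatum (0.17, FDR 0.079). Eif2ak3 then passed between brainstem and cortex (FDR 0.03).

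Regions of the same mouse are paired, and calls near the threshold were compared with and without the mouse as a block. In limma-voom with a random block, FDR was under 0.05 for Atf4 between brainstem and striatum (FDR 0.031), Ddit3 between brainstem and cerebellum (FDR 0.023) and Eif2ak3 between brainstem and cortex (FDR 0.043), and it was also under 0.05 for these in limma-voom without the block (FDR 0.045, 0.042 and 0.048). In edgeR with a fixed block, Xbp1 passed between brainstem and cortex (FDR 0.0065), brainstem and striatum (FDR 0.019) and cerebellum and striatum (FDR 0.012), while Sesn2 did not pass between cortex and striatum (0.3, FDR 0.067).

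The second question was whether SCA3 mice show a changed expression of these genes in any region. No member was called in brainstem, where 1.92% of all genes were called, in cerebellum (0.0647%) or in cortex (0.154%). In striatum 2 of 9 members, Sesn2 and Atf4, were called, both lower in SCA3, where 7.54% of all genes were called in either direction and 5.47% lower in SCA3. In a combined test over the 4 regions 1 of 9 members, Sesn2, was called (FDR 0.021), against 4.73% of all genes. In the test of whether the genotype difference depended on region none was called, against 0.218% of all genes, and Sesn2 had the smallest FDR of the members (0.14). The striatal difference of Sesn2 or Atf4 is therefore not shown to differ from the other regions. At an unadjusted p under 0.05, 2 members passed in brainstem (1640 genes in all), none in cerebellum (205 genes), none in cortex (503 genes) and 2 in striatum (2874 genes). edgeR's quasi-likelihood test and DESeq2 also called no member in brainstem, cerebellum or cortex.

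**Figure D2:**
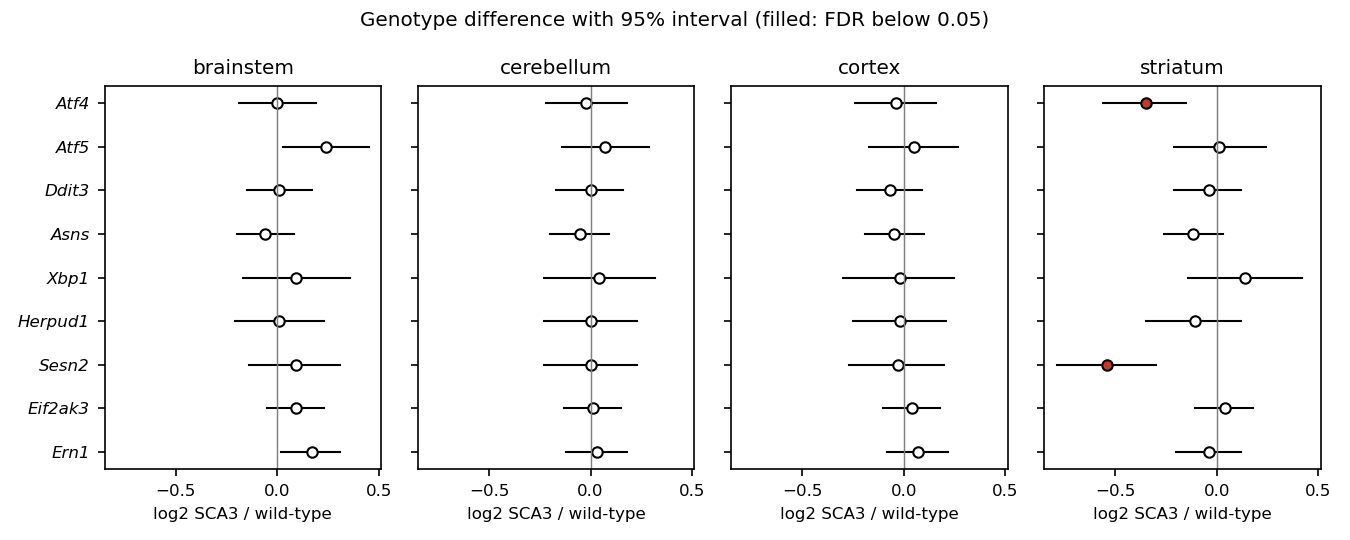
Log2 ratio of SCA3 to wild-type (horizontal axes) for the 9 genes (vertical axis) in each region, with the 95% interval as a line and a filled point where FDR was below 0.05. The filled points are Atf4 at -0.35 and Sesn2 at -0.54 in striatum, and cerebellar points all lie within 0.07 of 0.

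In cerebellum and cortex the members were tightly bounded. The log2 differences ran from -0.05 to 0.07 in cerebellum and from -0.07 to 0.07 in cortex, with median absolute sizes of 0.02 and 0.04 against 0.04 and 0.06 over all genes. For Ddit3 the 95% interval was -0.17 to 0.16 in cerebellum and -0.23 to 0.09 in cortex. The widest intervals were those of Xbp1, from -0.23 to 0.32 in cerebellum and from -0.3 to 0.25 in cortex. Changes beyond these limits are outside the 95% intervals.

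In brainstem 7 of 9 members had a higher and 2 a lower fitted value in SCA3, with a median log2 difference of 0.09 against 0 over all genes. Atf5 ranged from 14 over a median of 18.3 to 21 CPM in 6 SCA3 mice and from 11.4 over 15.6 to 17.9 CPM in 8 wild-type mice. The SCA3 group held 3 libraries above each wild-type library, and the groups otherwise overlapped. The log2 difference was 0.24 (SE 0.11, FDR 0.29). Ern1 lay between 12.5 and 16.2 CPM (median 13.8) in SCA3 and between 11.9 and 13.3 CPM (median 12.5) in wild-type, with 5 of 6 SCA3 libraries above the highest wild-type library. Its log2 difference was 0.17 (SE 0.07, FDR 0.29). Neither is a call. RNA integrity numbers (RIN) were higher in the SCA3 brainstem libraries (mean 7.78, n = 6) than in the wild-type ones (7.24, n = 8; exact two-sided permutation p = 0.011, 0.044 after adjustment over 4 regions). With RIN as a covariate over all libraries Atf5 had a log2 difference of 0.26 (FDR 0.34) and Ern1 of 0.15 (FDR 0.48). Over 14 other settings, counting this one, Atf5 ran from 0.15 to 0.41 and was called in 1 (FDR 0.028). Ern1 ran from 0.13 to 0.23 and was called in 0. The remaining members in brainstem had log2 differences between -0.06 (Asns) and 0.09, and Atf4 was at 0 (SE 0.1, 95% interval -0.19 to 0.19).

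In striatum Sesn2 was at 5.09, 5.58, 5.66, 5.98 and 7.58 CPM in the 5 SCA3 libraries, and at 5.48 to 10.9 CPM with a median of 9.3 CPM in the 8 wild-type libraries. In wild-type striatum 6 of 8 libraries lay above the highest SCA3 library, while the remaining 2, of mice 9082857 (5.77 CPM) and 9083371 (5.48 CPM), lay within the SCA3 range. The log2 difference was -0.54 (SE 0.12, 95% interval -0.79 to -0.3, FDR 0.0016), or 0.685 times the wild-type level. Sestrin-2 is induced by ATF4 and by p53 and restrains mTORC1 when amino acids are short.

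Atf4 in striatum was at 63.3, 66.5, 70.1, 79.3 and 89.6 CPM in SCA3 and at 78 to 116 CPM with a median of 90.5 CPM in wild-type. Here 3 of 5 SCA3 libraries lay below the lowest wild-type library, and 4 of 8 wild-type libraries above the highest SCA3 library. The log2 difference was -0.35 (SE 0.1, 95% interval -0.56 to -0.15, FDR 0.019), or 0.782 times the wild-type level. The other 7 members were not called in striatum. Asns had a value of -0.12 (95% interval -0.26 to 0.03) and Herpud1 of -0.11 (-0.35 to 0.12), and the sensors Eif2ak3 and Ern1 were at 0.04 and -0.04. Xbp1 had a value of 0.14 (95% interval -0.14 to 0.42), and Ddit3 and Atf5 were at -0.04 and 0.01.

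The wild-type striatal libraries differed among themselves in markers of the neighbouring thalamus. All 11 thalamic markers of the list were in the table, none at 0, and their summed level ran from 200 to 2770 CPM in wild-type and from 201 to 494 CPM in SCA3 striatum, with 7 of 11 called lower in SCA3. The markers are not particular to thalamus, since their sum was 1530 to 1920 CPM in cerebellum. Oligodendrocyte markers (7 of 7) summed to 6410 to 18700 CPM in wild-type and 5870 to 8900 CPM in SCA3 striatum, with 3 called lower, and of 7 astrocyte markers 2 were called lower (3780 to 5450 against 3990 to 4440 CPM). Neuronal markers (6 of 6) were at 5040 to 6370 CPM and 5210 to 6710 CPM with none called. Striatal markers (6 of 8) summed to 1050 to 5010 CPM in wild-type and 3130 to 4690 CPM in SCA3 striatum. None of them was called, and their median log2 difference was 0.51.

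Among the wild-type libraries, those with the highest and the lowest thalamic sums also had the highest and the lowest Atf4. The highest sums were those of wild-type mice 7267059 (2770 CPM) and 7267058 (1880 CPM), which had Atf4 at 116 and 112 CPM and Sesn2 at 10.9 and 9.1 CPM. The 2 wild-type libraries with the lowest sums, of mice 9082857 (200 CPM) and 9083371 (203 CPM), had Atf4 at 81.1 and 78 CPM. These are the 2 libraries whose Sesn2 lay within the SCA3 range, and in both their Atf4 was among SCA3 values as well. In the SCA3 library with the highest sum, that of mouse 9082853 (494 CPM), Sesn2 was at 5.98 and Atf4 at 79.3 CPM, where the wild-type library of mouse 9083372 with nearly the same sum (492 CPM) had 9.5 and 86.7 CPM. Among the 6 wild-type libraries from 354 to 2770 CPM, Sesn2 was at 8.94, 9.5, 9.85, 10.4, 9.1 and 10.9 CPM in the order of the sum. The SCA3 library of mouse 9083514, with a sum of 215 CPM, had the highest SCA3 values of both genes (7.58 and 89.6 CPM).

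**Figure D3:**
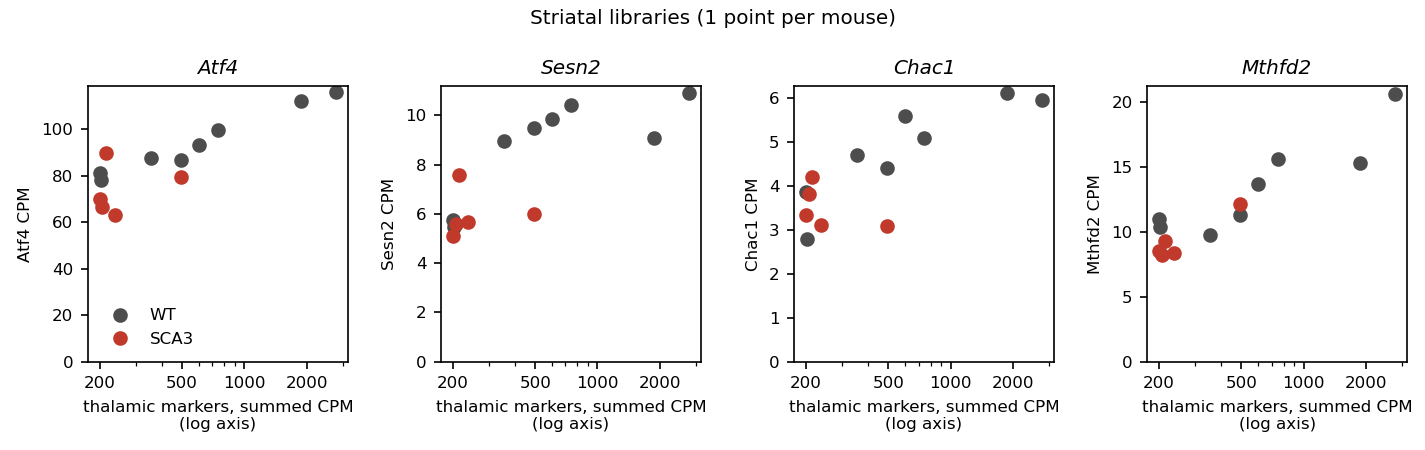
Level in CPM (vertical axes, from 0) of Atf4, Sesn2, Chac1 and Mthfd2 against the summed CPM of 11 thalamic markers (horizontal axes, log scale) in 13 striatal libraries, wild-type in grey and SCA3 in red. The 4 libraries above 494 CPM on the horizontal axis are all wild-type, and the 2 wild-type libraries at 200 and 203 CPM lie near the SCA3 libraries for Sesn2.

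When the 4 wild-type striatal libraries above every SCA3 striatal library in this sum (600 CPM and more) were left out, an analysis chosen after seeing the data, no member was called in striatum. Sesn2 then had a log2 difference of -0.31 (FDR 0.64) and Atf4 of -0.17 (FDR 0.9), and the count over all genes went from 933 to 36. When the striatal libraries alone were fitted with a covariate for the thalamic markers, the values were -0.35 (FDR 0.61) and -0.19 (FDR 0.57), and without the covariate, in those libraries alone, -0.54 (FDR 0.15) and -0.35 (FDR 0.16). Both calls were also lost in libraries with a RIN of at least 7 (-0.48, FDR 0.059, for Sesn2 and -0.28, FDR 0.22, for Atf4). They were lost as well within the largest series of mouse numbers, of 4 wild-type and 2 SCA3 striatal libraries (-0.44, FDR 0.54, and -0.14, FDR 0.87). The direction was lower in SCA3 in each of these fits. The Sesn2 call was kept when any 1 mouse was left out (FDR 6.2e-05 to 0.022). The Atf4 call was lost without any of the mice 7267054 (FDR 0.1), 7267056 (0.12), 7267058 (0.067), 7267059 (0.072) or 9083515 (0.074). The combined-test call of Sesn2 was lost in 9 of 14 such fits (FDR up to 0.14) and kept without mouse 9082857, 9083371, 9083375, 9083513 or 9083514. Sesn2 kept this call in 6 of 10 other settings, and lost it in limma-voom both with the mouse as a block (FDR 0.17) and without the block. Its test of region dependence passed without mouse 9082857 (FDR 0.011) or 9083371 (FDR 0.014), the 2 wild-type mice with the lowest thalamic sums.

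To see whether the rest of the response moved, 99 further genes of the pathway were examined, of which 90 were in the table. Of these 90, 3 were called in brainstem (3.33%), none in cerebellum, 1 in cortex (1.11%) and 6 in striatum (6.67%). The shares of all genes called were 1.92% in brainstem, 0.154% in cortex and 7.54% in striatum, so the share among pathway genes in striatum was below the background and those in brainstem and cortex rest on 3 genes and 1 gene.

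**Figure D4:**
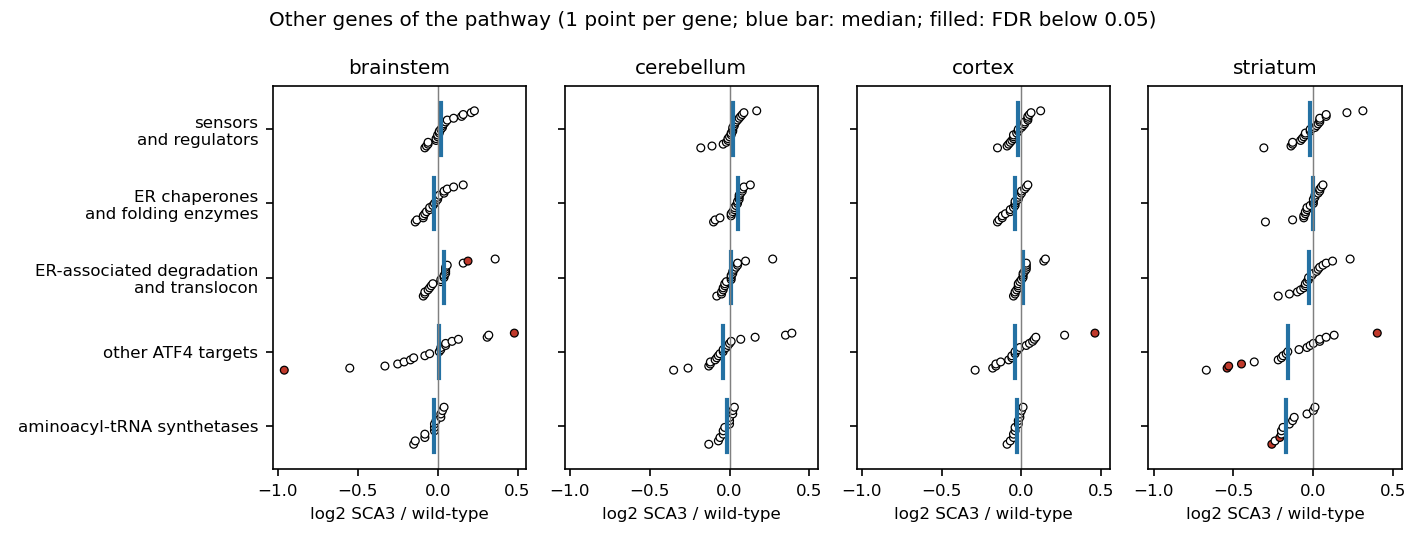
Log2 ratio of SCA3 to wild-type (horizontal axes) of 90 further genes in 5 lists (vertical axis) for each region, with 1 point per gene, list medians as blue bars and filled points where FDR was below 0.05. In striatum the medians of the ATF4 targets and the synthetases lie at -0.16 and -0.17, and the other medians lie within 0.05 of 0.

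The ER arm showed little. Of 21 sensors and regulators none was called in any region, and the list medians lay between -0.02 and 0.02. Of 19 ER chaperones and folding enzymes none was called in any region either, with medians from -0.04 to 0.05 and single values from -0.3 to 0.16. Hspa5, the chaperone BiP that holds the sensors inactive, was picked from this list after its values were seen, as the usual readout of ER stress. It had log2 differences of -0.08, 0.04, -0.12 and -0.05 in these regions in the order brainstem, cerebellum, cortex, striatum (SE 0.19 to 0.21, FDR 0.91 to 1), a spread between mice that leaves changes of moderate size undetected. Among 19 genes of ER-associated degradation and the translocon, 1 was called, in brainstem.

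That gene was Os9, a lectin that delivers misfolded glycoproteins to the degradation machinery. In brainstem it lay between 176 and 224 CPM (median 181) in SCA3 and between 157 and 176 CPM (median 166) in wild-type, with 5 of 6 SCA3 libraries above each wild-type library. The log2 difference was 0.19 (SE 0.05, FDR 0.018). Without mouse 9083514, the library at 224 CPM, the log2 difference was 0.13 (FDR 0.36), and the call was also lost without 9083371 (0.17, FDR 0.081), 9083372 (0.17, FDR 0.069) or 9083515 (0.18, FDR 0.069). It was lost as well among the brainstem libraries alone (0.18, FDR 0.067), and there with RIN as a covariate (0.18, FDR 0.35). Os9 had log2 differences of 0.01, -0.02 and -0.06 in cerebellum, cortex and striatum. Its test of region dependence did not pass (FDR 0.21), nor did its combined test (FDR 0.072).

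The targets of ATF4 were the list with most calls. Like the others, this list was chosen with earlier results of these data known, so its count of calls is a description. Of its 27 genes 19 were in the table. In striatum 3 of the 19 in the table were lower and 1 higher in SCA3, and the 12 aminoacyl-tRNA synthetases, which charge tRNAs with amino acids, included 2 lower, in a region where 7.54% of all genes were called and 5.47% were called lower. The list medians were -0.16 and -0.17, against 0 over all genes. Fitted values below 0 were found for 10 of 12 synthetases in striatum, 11 in cortex and 8 each in brainstem and cerebellum, and the medians outside striatum were -0.03 to -0.01.

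Mthfd2, an enzyme of mitochondrial one-carbon metabolism, was at 8.24, 8.39, 8.51, 9.3 and 12.1 CPM in SCA3 striatum and at 9.74 to 20.6 CPM (median 12.5) in wild-type striatum. Of the SCA3 libraries 4 of 5 lay below the lowest wild-type library, and the log2 difference was -0.53 (SE 0.12, FDR 0.0017). Chac1, which degrades glutathione, was at 3.08, 3.12, 3.33, 3.81 and 4.21 CPM in SCA3 and at 2.8 to 6.11 CPM (median 4.9) in wild-type, with a log2 difference of -0.45 (SE 0.15, FDR 0.037). For Chac1, 6 of 8 wild-type libraries lay above the highest SCA3 library and 1 below the lowest. Slc6a9, the glycine transporter GlyT1, was at 55.8, 57.8, 63.1, 65.9 and 79.1 CPM in SCA3 and at 63.9 to 160 CPM (median 86.2) in wild-type, with a log2 difference of -0.54 (SE 0.15, FDR 0.0096). Exons of Slc6a9 share 1429 bases with Ccdc24 and 511 with Gm17114 on the opposite strand, and since counting ignored strand, its reads cannot be assigned with certainty.

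The synthetases that were called are those for alanine and tyrosine. Aars, for alanine, was at 122, 123, 132, 149 and 157 CPM in SCA3 and at 131 to 212 CPM (median 160) in wild-type striatum (log2 difference -0.26, SE 0.08, FDR 0.03). Yars, for tyrosine, was at 82.7, 84.8, 84.8, 88.6 and 91.7 CPM in SCA3 and at 88.7 to 119 CPM (median 99.6) in wild-type striatum (-0.21, SE 0.07, FDR 0.038). In both genes the groups overlapped, with 5 and 6 of 8 wild-type libraries above the highest SCA3 library. Exons of Aars share 1326 bases with Exosc6 and those of Yars 30 bases with C77080. Promoters of Chac1, Aars and Yars hold the ATF4 element, and those of Mthfd2 and Slc6a9 do not in this window. The windows of Chac1 (chr2:119351028-119351076, plus strand) and Aars (chr8:111033709-111033757, plus strand) are printed because each holds an element before the start, in capitals and read on the opposite strand. Aars has a further match just after the start.
Chac1: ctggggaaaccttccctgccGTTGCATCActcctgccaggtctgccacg
Aars: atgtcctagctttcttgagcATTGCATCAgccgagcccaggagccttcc

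The test of region dependence did not pass for Mthfd2, Chac1, Slc6a9, Aars or Yars (FDR 0.53 to 0.69). In brainstem, cerebellum and cortex Mthfd2 was at -0.15, -0.09 and -0.18 and Slc6a9 at -0.25, -0.12 and -0.08, with no call. Both were called in the combined test (FDR 0.0056 and 0.036), and in 7 and 4 of 10 other settings of it. Chac1, Aars and Yars were not (FDR 0.22 to 0.25). In striatum, without the 4 wild-type libraries high in thalamic markers, none of the 5 lower genes was called. The log2 differences were -0.19 for Mthfd2 (FDR 0.87), -0.16 for Chac1 (FDR 0.95), -0.27 for Slc6a9 (FDR 0.75), -0.1 for Aars (FDR 0.94) and -0.11 for Yars (FDR 0.9). Of 14 other settings, counting this one, Mthfd2, Slc6a9, Aars and Yars were called in 8 and Chac1 in 6. All 5 calls were lost with a RIN of at least 7 (FDR 0.071 to 0.28), in the striatal libraries alone (FDR 0.18 to 0.31) and in the largest series of mouse numbers (FDR 0.4 to 0.92). When single mice were left out, the striatal call of Mthfd2 was kept in 14 of 14 fits, that of Slc6a9 in 12, of Aars in 7, of Chac1 in 6 and of Yars in 5. The Slc6a9 call was lost without mouse 7267056 (FDR 0.064) or 7267059 (0.069), and those of Chac1, Aars and Yars without any of the mice 7267054, 7267056, 7267058, 7267059, 9083373 and 9083515 (highest FDR 0.15, 0.16 and 0.14, without 7267056). Chac1 and Yars were lost also without 7267055 or 9082853, and Aars and Yars without 9083372. The settings that lost the Chac1 call included limma-voom with the mouse as a block (-0.42, FDR 0.082).

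Psat1, an enzyme of serine synthesis and also on the list of ATF4 targets, went the other way. It lay between 235 and 290 CPM in SCA3 brainstem, above the wild-type range of 136 to 219 CPM, and between 131 and 172 CPM against 102 to 123 CPM in cortex, without overlap in either region. In striatum it was at 193, 199, 220, 230 and 262 CPM in SCA3 against 131 to 216 CPM in wild-type, and its log2 difference of 0.4 (SE 0.11, FDR 0.0092) was 0.49 (FDR 0.016) without the 4 libraries high in thalamic markers. The striatal call of Psat1 was lost in 3 of 14 other settings, namely the striatal libraries alone (0.4, FDR 0.15), these with RIN as a covariate (0.4, FDR 0.17) and the largest series of mouse numbers (0.51, FDR 0.15). In cerebellum Psat1 lay between 104 and 146 CPM in SCA3 and between 81.2 and 106 CPM in wild-type, a log2 difference of 0.39 that was not called (FDR 0.23) but passed in the 3 fits of the cerebellar libraries alone (FDR 1.1e-11 to 0.024). The call in cortex (log2 difference 0.46, FDR 0.012) was lost without mouse 7267054 (FDR 0.11), 7267056 (0.06), 9083514 (0.054) or 9083515 (0.082), in limma-voom without a block (0.46, FDR 0.056) and with the mouse as a block (0.45, FDR 0.081), and in the largest series of mouse numbers (0.44, FDR 0.54). The test of region dependence for Psat1 gave an FDR of 0.99. In striatum Psat1 thus had the opposite sign to Mthfd2, Chac1 and Slc6a9 of the same list, and in brainstem and cortex Psat1 was higher while Atf4 was at 0 and -0.04.

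Slc7a11, the cystine carrier of system xc- and a further ATF4 target, was lower in SCA3 brainstem. It lay between 24.8 and 42.4 CPM (median 26.5) in 6 SCA3 mice and between 39.9 and 104 CPM (median 52) in 8 wild-type mice, with 5 of 6 SCA3 libraries below each wild-type library. The log2 difference was -0.96 (SE 0.18, 95% interval -1.31 to -0.61, FDR 7e-05), or 0.515 times the wild-type level, the largest of the 90 genes in that region. In cerebellum, cortex and striatum it was at -0.35 (FDR 1), -0.16 (FDR 1) and -0.37 (FDR 0.22), and the dependence on region did not pass (FDR 0.35). In cerebellum 6 of 7 wild-type libraries lay above the highest SCA3 library, and 3 of 14 other settings called Slc7a11 there (lowest FDR 0.017). The combined test over the regions called it (FDR 5.8e-05), as did 10 of 10 other settings and 14 of 14 fits without 1 mouse. The library at 104 CPM, of wild-type mouse 7267059, also had the lowest RIN of the brainstem libraries, 6.3. The brainstem call was kept when any 1 mouse was left out (FDR up to 0.0014) and with RIN as a covariate over all regions (-0.85, FDR 0.0014). It was lost with RIN as a covariate among the brainstem libraries alone (-0.58, FDR 0.17) and within the largest series of mouse numbers (-0.65, FDR 0.094). Astrocyte markers (7 of 7) summed to 2710 to 4430 CPM in SCA3 and 3100 to 7480 CPM in wild-type brainstem, with 2 called lower, and their part in the Slc7a11 value was not tested. The Slc7a11 promoter holds 2 ATF4 elements on opposite strands within a short distance, and the window chr3:50443651-50443699 on the minus strand is shown for that arrangement, with both in capitals.
Slc7a11: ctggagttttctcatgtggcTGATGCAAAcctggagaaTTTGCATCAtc

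Finally, it was asked which of these genes varied together from mouse to mouse. Deviations of log2 CPM from the mean of each region and genotype group were correlated over the 53 libraries, which share mice, depth and dissection, so the coefficients are descriptions. Atf4 went with Herpud1 (r = 0.76), Asns (0.7), Sesn2 (0.69) and Eif2ak3 (0.52), and Herpud1 also with Eif2ak3 (0.6). Xbp1 went with Ddit3 (0.63) and Herpud1 (0.62) and hardly with Atf4 (0.23) or Sesn2 (-0.1). Ern1 had negative coefficients with Ddit3 (-0.42), Xbp1 (-0.35) and Asns (-0.32). Among the called targets, Aars (0.81), Yars (0.79) and Chac1 (0.64) had the highest coefficients with Atf4, Mthfd2 (0.5) came next, and Psat1 (0.23), Slc6a9 (0.06) and Slc7a11 (-0.18) were lowest.

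**Figure D5:**
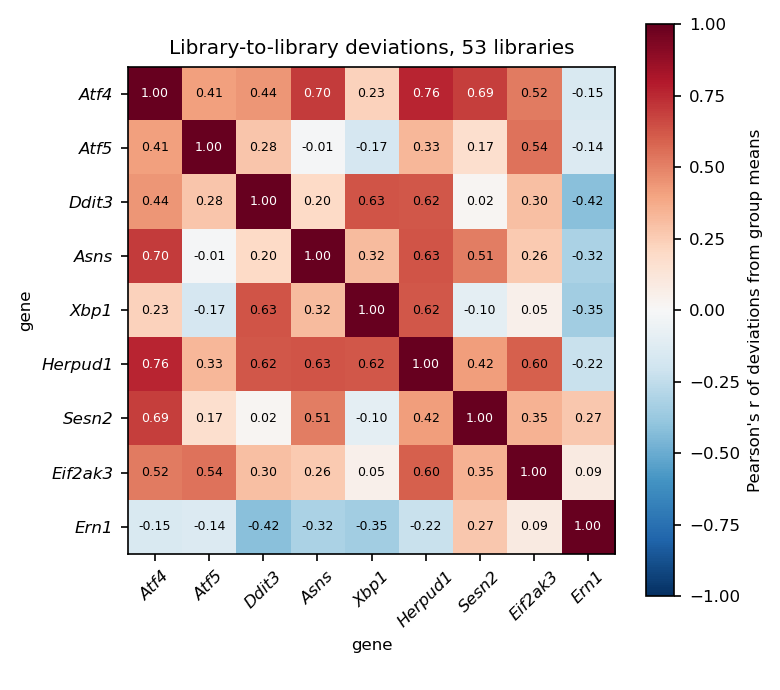
Pearson's r between the 9 genes (both axes) of deviations from group means over 53 libraries, from -1 in blue to 1 in red. The highest pair is Atf4 and Herpud1 at 0.76, and Ern1 is at or below 0.27 with each other gene.

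Over all 12372 genes, the genes most like Atf4 by this measure were Sars (r = 0.9), the seryl-tRNA synthetase, Mrm1 (0.88) and Pitpna (0.88). Those most like Xbp1 were Manf (0.91), Creld2 (0.88) and Pdia6 (0.87), all proteins of the ER lumen. Asns was nearest to Atp6v1c1 (0.81), Gars (0.79) and Idh3a (0.78), Ddit3 to Taf12 (0.78), Tjap1 (0.71) and Dnajb11 (0.7), and Herpud1 to Cgrrf1 (0.87), Paqr7 (0.84) and Mob2 (0.84). For Sesn2 they included Ppp5c (0.83) and Mast1 (0.81), and for Atf5 they were 1810058I24Rik (0.83), Slc48a1 (0.83) and Trp53inp2 (0.82). Eif2ak3 was nearest to Aplp2 (0.88), Ttll5 (0.82) and Ina (0.81). Ern1 had the weakest neighbours, Wdfy3 (0.68), Foxred2 (0.62) and Ptprm (0.62).

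The genes lie on several chromosomes of GRCm38 (GENCODE M21). Sesn2 is at chromosome 4, 132492032 to 132510501, on the minus strand, and Atf4 at chromosome 15, 80255184 to 80257541, on the plus strand. Ern1 and Xbp1 share chromosome 11 and Asns and Eif2ak3 chromosome 6. Exons of Atf5 share 82 bases with Il4i1 and Nup62 on the opposite strand and those of Eif2ak3 share 485 bases with Gm43292, so a part of their reads may belong to the partner. The other 7 members share no exonic bases with another annotated gene.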

How the data were processed

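Poly-A selected, non-stranded libraries were sequenced by the authors, and the deposited table held unnormalised whole-number counts of reads for each gene and library. Per the labels and the study's methods, adapters were trimmed with cutadapt 1.10, reads were aligned to GRCm38 with STAR 2.3.0e and uniquely aligned reads were counted per gene with HTSeq 0.6.1 without strand, so that overlapping genes are not separated. The authors kept genes averaging above 4 CPM (12372 genes, lowest mean 4.07 CPM), which leaves low genes unmeasured.

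All 53 libraries entered 1 negative binomial fit with 8 groups (edgeR 4.0.16, R 4.3.3, TMM, likelihood ratio tests as in the study), and P-values were adjusted by Benjamini-Hochberg over all genes, with calls at FDR below 0.05. Differences are given as log2 ratios, SCA3 to wild-type, with the standard error (SE) and 95% interval of the fit. Log2 CPM used a prior count of 2. P-values rest on the spread between libraries of the same group, each from a different mouse. The fit used 1 dispersion per gene over all 8 groups, so this spread is not that of 1 region alone. Libraries of the same mouse from different regions entered as separate units, so tests across regions leave out their pairing. Library totals limit precision through counting error only slightly at 292 counts or more.

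Named genes were the listed genes, pathway genes called in at least 1 region, and the 3 genes most correlated with each, of which 1 for Sesn2 is not reported here. The listed genes and all pathway and marker lists were chosen with earlier results of these data known. Hspa5 and the search for the ER stress element II were added after seeing the data. Alternatives were edgeR's quasi-likelihood test, DESeq2 1.42.0, limma-voom 3.58.1 with and without the mouse as a block, size factors by RLE, at least 10 counts in each library (12337 genes), RIN or mouse number series as covariates, RIN of at least 7 (49 libraries), regions alone, the largest mouse number series and leaving out each of 14 mice. Mice pair the libraries across regions: same-mouse deviations correlated with a mean r of 0.0904 to 0.186 over the pairs of regions (consensus 0.14). Columns with identical values: 0.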

Additional observations from a re-analysis of the deposited data

Results flagged for a closer look

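In groups of 4 to 10 libraries, the highest or lowest library was compared with the spread of its group by Dixon's criterion, for the 9 genes and the 8 called pathway genes. Of 136 groups 9 held a library far from the others, and chance flags about 1 in 20. Wild-type mouse 7267059 stood apart in 3 of them: Atf4 in brainstem was at 95.1 CPM (the next library at 106), Slc7a11 in brainstem at 104 CPM (next 61.9), and Eif2ak3 in striatum at 47.8 CPM (next 39.2). This mouse had the lowest brainstem RIN (6.3) and the highest striatal sum of thalamic markers (2770 CPM), and their part in these values was not tested. SCA3 mouse 9082853 also stood apart in 3: Ddit3 in cerebellum at 31 CPM (next 26.2), Herpud1 in cerebellum at 87.9 CPM (next 74.6) and Mthfd2 in striatum at 12.1 CPM (next 9.3). The remaining 3 were Herpud1 in wild-type brainstem of mouse 9083375 at 62.6 CPM (next 72.5), Os9 in SCA3 brainstem of mouse 9083514 at 224 CPM (next 193) and Chac1 in wild-type cortex of mouse 9082857 at 10.4 CPM (next 7.78).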

How the results depend on the processing

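No value of a gene or count reversed its direction where it was called. The 2 members called in striatum became 0 with a RIN of at least 7, with the striatal libraries alone, alone with RIN or with the thalamic score as a covariate, with the largest mouse number series alone, and without the 4 wild-type libraries high in thalamic markers (the last chosen after seeing the data), and 1 to 2 when single mice were left out. The 1 member called in brainstem with the thalamic score as a covariate among the brainstem libraries was Atf5 (0.31, FDR 0.028), where the reported count is 0. The 1 member in the combined test became 0 with limma-voom without a block, with a RIN of at least 7 and without the 4 libraries, and 0 to 1 when single mice were left out. The count for region dependence was 0 to 1, and that for wild-type cortex against striatum 1 to 3, when single mice were left out. With the mouse as a random replicate block in limma-voom, 0 members were called in the combined test (Sesn2 FDR 0.17), as without the block. The pairing of regions by mouse left 2 members in striatum with this block (Sesn2 FDR 0.03, Atf4 FDR 0.029). As a fixed replicate block in edgeR it could be used for region dependence (0) and the wild-type pairs, and no other count moved by over 1.5 times. In all, 281 counts stayed within 1.5 times of those reported and 30 did not, and of single-gene results 3893 kept their side of the threshold, 154 lost a call and 40 gained one. Why calls were lost was not tested. The lowest count of a member was 292, and group sizes of 5 to 8 mice limit the precision.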
